A study of Mus musculus with 24 samples.

Results

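The early response to lipopolysaccharide (LPS, a cell wall component of Gram-negative bacteria) was measured in RAW 264.7 cells, an established mouse macrophage line, carrying a stably integrated doxycycline-inducible Nur77. The comparison took 8 of the 24 RNA-seq libraries of the series: 4 from Nur77 cells harvested 1 h after 500 ng/ml LPS and 4 from Nur77 cells at 0 h of LPS. All 8 came from cells kept in 50 ng/ml doxycycline for 18 h beforehand, so the cells of the 0 h libraries had been given the inducer too. The other 16 libraries were from a GFP line given the same doxycycline, at 0, 1 and 5 h of LPS, and from the Nur77 line at 5 h, with 4 libraries in each group. The question was which genes had changed in the Nur77 line by 1 h, and where that response differed from the one in GFP cells. Each construct was carried by 1 stable line, so a property of a line cannot be told apart from an effect of its construct. Nothing in the labels says that replicates were separate cultures, and the p-values then reflect only how these samples vary, possibly for technical reasons.

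LPS is bound by Cd14 and by the complex of Toll-like receptor 4 with Ly96, which signals through the adaptors Myd88 and Ticam1. Both branches release NF-kB from its inhibitors and activate MAP kinases, and the Ticam1 branch also leads to interferon. The first genes to respond are immediate early genes, whose transcription needs no new protein. They include AP-1 transcription factors, and the inhibitors, phosphatases and RNA-decay proteins that later shut the response off. Nur77 is the protein of Nr4a1, an orphan nuclear receptor gene that is itself an immediate early gene in macrophages.

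Levels are in CPM, counts scaled to a common library size with TMM, edgeR's trimmed-mean method. They hold 1 transcript per gene and are not divided by length, so they compare samples and not genes. A gene was called when its adjusted p (Benjamini-Hochberg over all genes tested, edgeR quasi-likelihood test) was under 0.05. Summed over the 1 transcript kept per gene, the 8 libraries held between 11103774 and 23775276 counts, against 8134143 to 29275847 over all 24. Over all transcripts of the deposited counts, the sums were 22057837 to 47362982.5 in the 8 libraries and 15925373.5 to 57880679.5 over all 24. All 10 macrophage markers were present, with a summed level of 5920 to 6164 CPM at 0 h and 5062 to 6375 CPM at 1 h. The 5 epithelial markers had no counts, and fibroblast and B cell markers summed to at most 0.403 CPM. T cell markers came to 5.56 to 11.5 CPM, of which Lck made up nearly all while Cd3d, Cd3e and Cd3g were at 0. Neutrophil markers came to 1.13 to 4.58 CPM, nearly all S100a8, with S100a9 and Ly6g at 0. Nr4a1 itself was at 2.74, 3.71, 3.27 and 3.37 CPM in the 4 Nur77 libraries at 0 h, beside 3.03 ± 0.3901 CPM (SD, n = 4) in GFP cells. The labels do not say which species' Nur77 was expressed or from which transcript, so this count does not check them.

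Replicate 2 of the 1 h group stood apart from the other 3. On the first principal component of all 24 libraries (48.0% of the variance), the 0 h libraries lay between -48.4 and -46.0. The other 3 libraries at 1 h lay between -11.4 and -10.2 and the 5 h libraries of the same line between 62.9 and 64.4. Replicate 2 lay at 11.7, between its own group and the 5 h group. Below, levels of the 4 libraries of a group are in the order of replicates 1 to 4. Square brackets after a log2 fold change or an interaction hold its value without replicate 2, where the text does not give that value in words. A gene said to have risen or fallen was called in both fits unless the text says otherwise.

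By 1 h, 2750 genes were higher and 2660 lower among 12198 tested, which is 44.4% of the genes, 22.5% higher and 21.8% lower. Without replicate 2 of the 1 h group, 2352 genes were higher and 2347 lower among 12306 tested, which is 38.2%, with 19.1% higher and 19.1% lower. Both fits called 4339 genes in the same direction, 2215 higher and 2124 lower, and 0 in opposite directions. A further 1071 were called only with that library and 348 only without it. Most changes were small: with all libraries, 420 genes rose and 299 fell by at least 1 on the log2 scale. At 3 or more on that scale, 100 rose and 6 fell. The median log2 fold change over all genes tested was -0.02. Since so many genes passed the test, the counts of each gene group below are read against these shares. With all libraries, the 0 h and 1 h levels did not overlap for 1955 higher and 2055 lower genes of the 12198 tested. A rule for large changes named some of the genes below, and lack of overlap was one of its conditions, so it is no result for them. Others were named for the smallest adjusted p of their list in this same comparison. That choice favours genes without overlap, so for them lack of overlap only describes the levels and adds no support.

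**Figure D1:**
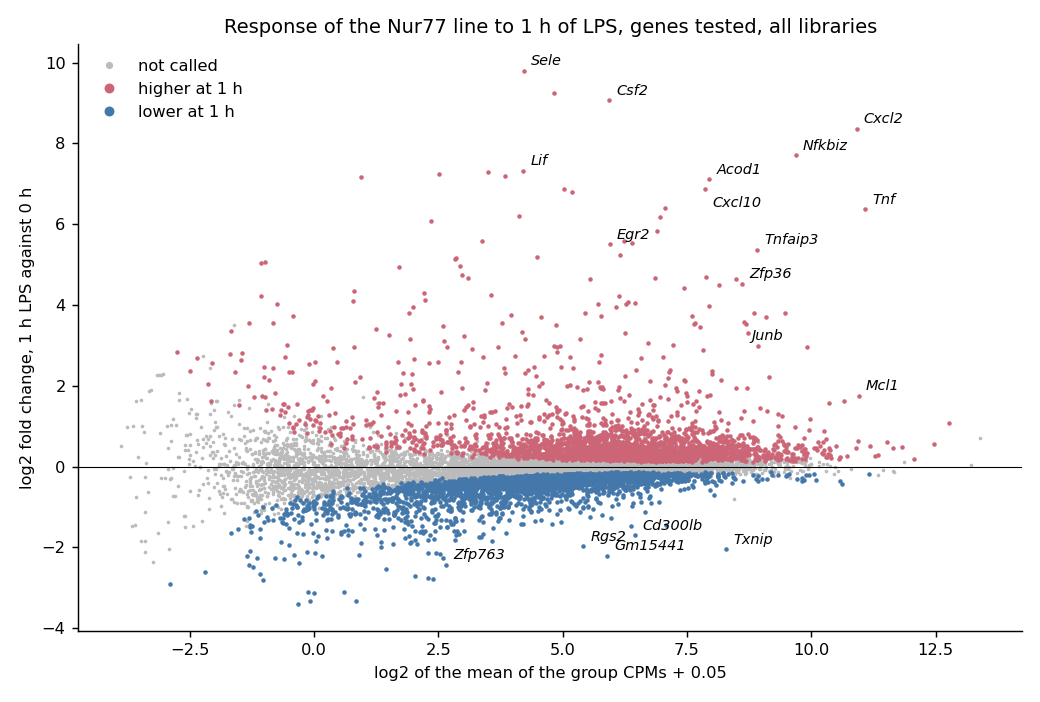
Log2 fold change of 1 h LPS against 0 h in the Nur77 line (y axis) against the log2 of the mean of both group levels in CPM plus 0.05 (x axis), all libraries, 1 point per gene tested with counts in both groups. Called genes are red (higher) or blue (lower). The tail above 3 holds nearly all of the large changes, and Txnip at -2.05 is a highly expressed gene that fell.

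The sequences just upstream of the start of 5 genes are shown because their values anchor the results that follow. They are the chemokine gene Cxcl2, the NF-kB inhibitor genes Tnfaip3 and Nfkbia, the RNA-decay gene Zfp36, and Txnip, which fell. They were chosen after the values were seen and are credited to RefSeq (GRCm38.p6). Each run is the 250 bases before the start, 5′ to 3′ in the direction of transcription. It lies at chr5:90903649-90903898 (plus strand) for Cxcl2, chr10:19015411-19015660 (minus strand) for Tnfaip3, chr12:55492648-55492897 (minus strand) for Nfkbia, chr7:28379229-28379478 (minus strand) for Zfp36 and chr3:96557707-96557956 (plus strand) for Txnip. Tnfaip3 has 2 listed starts and the first is shown. Capitals mark matches to the kB consensus (bound by NF-kB), the CArG box (bound by Srf) or the AP-1 element TGANTCA.
Cxcl2: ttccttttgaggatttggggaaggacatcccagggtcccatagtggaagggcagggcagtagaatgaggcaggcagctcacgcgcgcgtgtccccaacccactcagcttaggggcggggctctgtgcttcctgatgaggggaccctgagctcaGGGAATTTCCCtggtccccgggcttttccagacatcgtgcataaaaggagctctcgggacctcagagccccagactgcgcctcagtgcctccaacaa
Tnfaip3: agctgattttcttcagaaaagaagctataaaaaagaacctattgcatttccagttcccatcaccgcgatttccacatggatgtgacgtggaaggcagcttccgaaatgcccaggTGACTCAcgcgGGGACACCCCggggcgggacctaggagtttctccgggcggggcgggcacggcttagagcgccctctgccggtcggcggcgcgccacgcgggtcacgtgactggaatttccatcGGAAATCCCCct
Nfkbia: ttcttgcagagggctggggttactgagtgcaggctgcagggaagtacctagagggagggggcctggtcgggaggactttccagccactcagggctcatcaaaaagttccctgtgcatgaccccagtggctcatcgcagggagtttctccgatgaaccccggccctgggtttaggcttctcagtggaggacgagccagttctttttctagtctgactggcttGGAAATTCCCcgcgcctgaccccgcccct
Zfp36: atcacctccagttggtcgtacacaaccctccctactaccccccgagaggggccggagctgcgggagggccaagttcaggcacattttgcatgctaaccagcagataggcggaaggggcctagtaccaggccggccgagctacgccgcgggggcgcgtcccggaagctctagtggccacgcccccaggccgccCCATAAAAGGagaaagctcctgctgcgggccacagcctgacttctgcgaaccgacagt
Txnip: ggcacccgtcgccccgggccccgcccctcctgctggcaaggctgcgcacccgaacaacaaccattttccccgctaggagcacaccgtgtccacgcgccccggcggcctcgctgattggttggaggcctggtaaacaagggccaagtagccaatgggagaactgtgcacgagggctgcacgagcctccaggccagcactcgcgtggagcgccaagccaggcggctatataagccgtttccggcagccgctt

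In Cxcl2 the capitals are 2 overlapping kB matches that begin 97 and 96 bases before the start. Tnfaip3 held an AP-1 element 136 bases before the start and kB matches at 125 and 12. Nfkbia held a kB match at 29 bases, and Zfp36 a CArG box at 58. Tnfaip3 also held the TATA box letters, not in capitals, 225 bases before the start. Txnip held none of the motifs searched in this window, which says only that those letters are not there. The search took the 250 bases before the start on both strands, with the cAMP response element TGACGTCA as a further motif and the TATA box TATAAA on the coding strand only. The kB consensus was in 3.90% of all 32851 promoters of the table and in 4.47% of the 12286 promoters of genes tested. It was in 19.8% of the 91 promoters matched to 66 of the 90 genes that rose by at least 3 on the log2 scale in both fits. In the 240 promoters of 198 of the 243 genes that fell by at least 1 in both fits it was in 1.25%. For the other motifs the shares follow in the same order: all promoters, genes tested, strong risers and fallers. They were 1.47%, 1.01%, 6.59% and 1.25% for the CArG box and 6.75%, 4.47%, 11.0% and 4.17% for the AP-1 element. The cAMP response element was in 1.55%, 2.61%, 7.69% and 3.33%, and the TATA box in 7.59%, 3.76%, 12.1% and 4.17%. These are descriptions of sequence, since the genes were picked on their values and a match is not a site in use.

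Nearly all genes of AP-1 and its partners rose. Of 15 tested subunits of the AP-1, ATF and small Maf families, 14 rose, 0 fell and 1 was not called, with and without replicate 2. The median log2 fold change of the list was 1.89 (1.85 without that library) beside -0.02 for all genes. Junb, the subunit that tempers Jun, stood at 61.9, 65.6, 65.9 and 55.1 CPM at 0 h and 829.9, 586, 731 and 817 CPM at 1 h. All 4 libraries at 1 h were far above all 4 at 0 h, and the log2 fold change was 3.58 ± 0.09 (SE) [3.67], edgeR adjusted p = 4.7e-21. Maff, a small Maf protein without a transactivation domain, went from 3.55, 4.06, 2.85 and 4.02 CPM to 97.2, 79.4, 95.7 and 89.7 CPM. Its log2 fold change was 4.65 ± 0.12 (SE) [4.71], edgeR adjusted p = 2.3e-21, and again no library overlapped. Atf3, a stress-induced repressor of inflammatory genes, was already expressed at 33.5, 34.5, 35.9 and 33.1 CPM and reached 252, 176, 246 and 226 CPM. Replicate 2 was the lowest of its group for Junb, Maff and Atf3 alike, and for Fosl2, a Fos-family member whose levels were 53.03, 48.7, 49.5 and 48.2 CPM before and 253, 172, 225 and 257 CPM after LPS. The log2 fold changes of Atf3 and Fosl2 were 2.72 [2.82] and 2.19 [2.30].

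Fos and Jun, the founding members of AP-1, both rose. Fos was at 4.43, 4.47, 4.401 and 4.93 CPM at 0 h and at 16.9, 18.2, 15.9 and 16.5 CPM at 1 h, a log2 fold change of 1.89 ± 0.12 (SE) [1.85], edgeR adjusted p = 2.3e-12. By 5 h it was back at 4.32 ± 1.23 CPM (SD, n = 4). Jun went from 89.8, 82.9, 80.8 and 83.9 CPM to 356, 659, 393 and 322 CPM, with replicate 2 the highest. For Jun the log2 fold change was 2.36 with all libraries and 2.08 without replicate 2. Among the list's other members, singled out after their values were seen, Fosb rose by 4.25 [4.34] and Fosl1 by 3.74 [3.57] on the log2 scale. The subunit not called was Batf, which stayed under 1 CPM in both groups.

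Most of the remaining immediate early genes rose. Of 24 tested, 20 rose, 3 fell and 1 was not called in both fits, and their median log2 fold change was 2.50 (2.40 without replicate 2). Egr2, a zinc-finger transcription factor, was at 2.34, 2.89, 3.03 and 2.21 CPM at 0 h and 121, 107, 132 and 121 CPM at 1 h. This was a log2 fold change of 5.51 ± 0.10 (SE) [5.56], edgeR adjusted p = 3.7e-24, and by 5 h the level had dropped to 18.1 ± 0.902 CPM (SD, n = 4). Egr1, of the same family, rose from 18.2, 16.9, 18.7 and 15.9 CPM to 370.2, 662, 445 and 340.1 CPM, a log2 fold change of 4.70. Its highest library was replicate 2, and without it the log2 fold change was 4.47. Myc, a regulator of growth, went from 0.725, 1.24, 1.37 and 1.36 CPM to 38.2, 40.8, 50.7 and 44.9 CPM (log2 fold change 5.18 ± 0.14 (SE) [5.21], edgeR adjusted p = 3.1e-20). In contrast to Egr2, Myc was at 48.5 ± 1.997 CPM (SD, n = 4) at 5 h, which overlaps its range at 1 h.

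Btg2, an antiproliferative gene, rose from 9.67, 9.21, 9.52 and 7.52 CPM to 178, 109.7, 141 and 152 CPM. Ier2, a short-lived nuclear protein gene, rose from 25.3, 29.9, 29.5 and 27.8 CPM to 172, 151, 131 and 141 CPM. Neither overlapped between the times, and the log2 fold changes were 4.02 [4.13] and 2.40 [2.40]. The 3 members that fell, named after their values were seen, were Klf10 (log2 fold change -0.78 [-0.55]), Klf4 (-0.47 [-0.46]) and Ier5l (-2.29 [-2.76]). Ier5l was a low gene, at 1.002 ± 0.332 CPM (SD, n = 4) before LPS.

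The Nr4a family, to which the construct belongs, responded unevenly. Nr4a1 rose from 2.74, 3.71, 3.27 and 3.37 CPM to 42.4, 9.29, 39.97 and 39.8 CPM. Replicates 1, 3 and 4 were close together and replicate 2 was far below them, yet above all 0 h libraries. The log2 fold change was 3.33 ± 0.32 (SE), edgeR adjusted p = 3.8e-08 with all libraries. Without replicate 2 it was 3.63 ± 0.11 (SE), edgeR adjusted p = 2.4e-20. Nr4a2 was at 2.42, 2.75, 2.97 and 2.08 CPM and then 2.87, 2.83, 3.23 and 3.498 CPM, overlapping levels whose log2 fold change of 0.27 [0.30] was not called (edgeR adjusted p = 0.21). Nr4a3 was low throughout, at 0.161, 0.413, 0.119 and 0.389 CPM and then 1.83, 1.35, 1.70 and 1.704 CPM, and its log2 fold change was 2.59 ± 0.35 (SE) [2.66], edgeR adjusted p = 1.4e-06. Its mean at 5 h was 7.48 ± 1.48 CPM (SD, n = 4), while Nr4a1 was back at 4.89 ± 0.322 CPM.

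**Figure D2:**
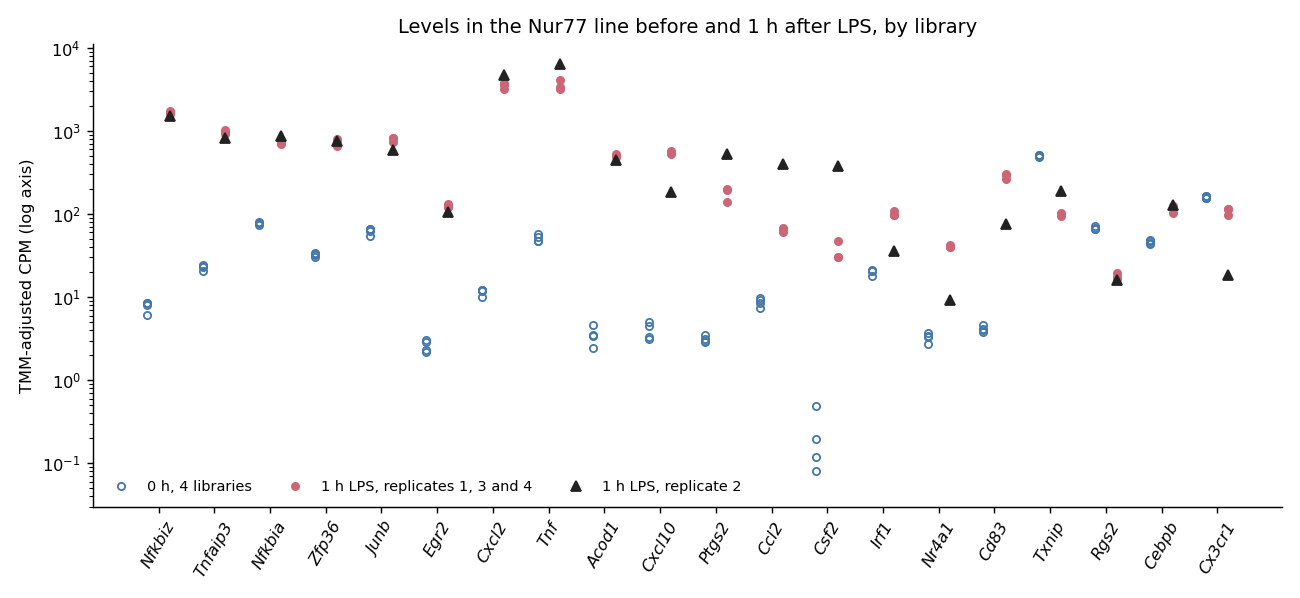
Level in CPM (log axis) of 20 genes in each of the 4 libraries at 0 h (open blue circles) and at 1 h (red circles, and a black triangle for replicate 2). For Nfkbiz to Acod1 the triangle lies close to the red points, while for Ccl2 and Csf2 it lies above them and for Irf1, Nr4a1, Cd83 and Cx3cr1 below.

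Inhibitors of NF-kB were among the genes that rose furthest. Of 24 tested NF-kB subunits and feedback inhibitors, 19 rose, 0 fell and 5 were not called in both fits, and the median log2 fold change was 1.44 (1.47 without replicate 2). Nfkbiz, an atypical nuclear IkB protein needed for a set of secondary inflammatory genes, was at 6.12, 8.53, 8.56 and 8.04 CPM at 0 h. At 1 h it was at 1599, 1500.0, 1766 and 1697 CPM in the 4 libraries. The groups lay far apart and replicate 2 was close to the rest, with a log2 fold change of 7.70 ± 0.10 (SE) [7.74], edgeR adjusted p = 1.4e-26. Tnfaip3, the ubiquitin-editing enzyme that ends NF-kB signalling and whose promoter with its kB matches is printed above, went from 24.2, 23.4, 23.2 and 20.4 CPM to 1021, 825, 986 and 934 CPM. Its log2 fold change was 5.37 ± 0.08 (SE) [5.43], edgeR adjusted p = 4.8e-26. Nfkbia, the classical cytoplasmic inhibitor, was well expressed before LPS at 74.6, 80.5, 77.5 and 78.99 CPM and rose to 756, 877, 743 and 699 CPM. The rise on the log2 scale was 3.30 ± 0.07 (SE) [3.23], edgeR adjusted p = 1.4e-22. Traf1, an adaptor of TNF receptors, went from 3.14, 3.44, 3.75 and 3.697 CPM to 179, 173, 146 and 156 CPM, with a log2 fold change of 5.53 [5.51].

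The 5 subunit genes of NF-kB rose. Singled out after their values were seen, Rel, Rela and Relb had log2 fold changes of 1.60 [1.70], 1.34 [1.41] and 1.01 [1.11], and Nfkb1 and Nfkb2 of 0.59 [0.46] and 0.91 [0.96]. The members not called were Tnip2, Traf2, Traf3, Cyld and Otulin, with log2 fold changes between -0.03 and 0.20.

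Phosphatases that switch off MAP kinases split into genes that rose strongly and genes that did not. Of 11 tested dual-specificity phosphatases, 6 rose, 1 fell and 4 were not called, and without replicate 2 the counts were 6, 2 and 3. The median log2 fold change was 1.87 (1.95). Dusp8 was nearly silent at 0.161, 0.5501, 0 and 0.0649 CPM before LPS and reached 32.05, 28.7, 23.6 and 28.9 CPM, a log2 fold change of 7.19 ± 0.25 (SE) [7.19], edgeR adjusted p = 4.7e-18. Dusp1, which inactivates p38 and JNK, went from 3.55, 4.401, 2.79 and 2.85 CPM to 48.99, 34.9, 47.2 and 43.6 CPM and was back at 4.16 ± 0.489 CPM (SD, n = 4) by 5 h. This was a log2 fold change of 3.69 ± 0.13 (SE) [3.79], edgeR adjusted p = 4.9e-18. Dusp5 rose from 5.72, 5.71, 7.49 and 5.19 CPM to 93.5, 119, 92.6 and 88.3 CPM, with replicate 2 highest. Dusp16 rose from 41.99, 39.1, 40.6 and 40.2 CPM to 169, 168, 169.8 and 193 CPM, with the 4 libraries of each time in a narrow range. Their log2 fold changes were 4.02 [3.92] and 2.11 [2.13]. Of the other members, named after their values were seen, Dusp2 and Dusp4 rose by 3.79 [3.99] and 1.87 [1.95] on the log2 scale. Dusp7 and Dusp6, also named after their values were seen, did not rise. Dusp7 fell from 26.8, 25.4, 26.6 and 24.2 CPM to 6.29, 20.7, 7.06 and 5.02 CPM, with replicate 2 nearest to the 0 h level. For Dusp7 the log2 fold change was -1.42 with all libraries and -2.04 without replicate 2. Dusp6 was at 116, 125, 113 and 119.6 CPM and then 65.1, 207, 70.5 and 68.3 CPM, so that replicate 2 lay above every 0 h library and the other 3 below. It was not called with all libraries (log2 fold change -0.21, edgeR adjusted p = 0.54) and fell without replicate 2 (-0.80 ± 0.09 (SE), edgeR adjusted p = 7.5e-08).

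Genes of several proteins that regulate mRNA decay rose. Of 16 such regulators tested, 10 rose, 2 fell and 4 were not called (11, 1 and 4 without replicate 2), and the median log2 fold change was 0.54 (0.53). Zfp36, which binds AU-rich elements and whose promoter holds the CArG box shown above, went from 31.8, 33.97, 32.8 and 30.1 CPM to 804, 751, 764 and 656 CPM. The log2 fold change was 4.53 ± 0.08 (SE) [4.53], edgeR adjusted p = 1.5e-24. Zc3h12a, an endonuclease that cuts cytokine transcripts, was at 8.87, 10.8, 10.8 and 9.34 CPM before and 182, 124, 165 and 195 CPM after LPS. Its relative Zc3h12c was at 29.6, 26.2, 23.7 and 27.6 CPM and 119, 96.01, 132 and 156 CPM. Replicate 2 was the lowest 1 h library for both, and the log2 fold changes were 4.06 [4.17] and 2.23 [2.34]. Btg1, an activator of deadenylation, moved less, from 103, 95.3, 98.3 and 102 CPM to 193, 219, 172 and 193 CPM (0.96 ± 0.07 (SE) [0.90], edgeR adjusted p = 7.6e-11). Of the same Zfp36 family, and singled out after their values were seen, Zfp36l1 rose (1.02 [1.15]) and Zfp36l2 fell (-0.60 [-0.49]) on the log2 scale.

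Most cytokine genes rose, and the median of the list was lower without replicate 2. Of 19 tested, 15 rose, 0 fell and 4 were not called, against 14, 0 and 5 without that library. Over the list, the median log2 fold change was 3.56 with it and 2.63 without it. Tnf, the first cytokine of the macrophage response, went from 46.7, 57.1, 53.2 and 47.8 CPM to 4096, 6359, 3234 and 3369 CPM. The rise on the log2 scale was 6.38 ± 0.18 (SE), edgeR adjusted p = 2.7e-18, and 6.12 without replicate 2. Lif, a cytokine of the interleukin-6 family, was near 0 at 0.161, 0.206, 0.357 and 0.1297 CPM and reached 36.3, 42.3, 29.2 and 38.6 CPM (7.33 ± 0.18 (SE) [7.25], edgeR adjusted p = 2.2e-21). In Lif replicate 2 lay close to the others, and the groups did not overlap, a condition of the rule for large changes.

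The interleukin-1 genes rose from low levels. Il1b was at 0, 0.0688, 0 and 0.454 CPM at 0 h and 22.3, 13.1, 24.5 and 29.4 CPM at 1 h, with replicate 2 the lowest. By 5 h it stood at 483 ± 19.2 CPM (SD, n = 4). Il1a was at 0.483, 0.5501, 0.595 and 0.908 CPM and then 57.03, 101, 66.4 and 63.6 CPM, with replicate 2 the highest. The log2 fold changes at 1 h were 7.29 [7.46] for Il1b and 6.79 [6.58] for Il1a. Tnfsf9, the ligand of a costimulatory receptor, was expressed at 27.9, 28.3, 32.95 and 28.5 CPM before LPS and reached 567, 249.6, 519.7 and 521 CPM. Its log2 fold change was 3.98, and 4.19 without the low replicate 2.

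The colony-stimulating factors Csf2 and Csf3, which drive production of granulocytes and macrophages, were far higher in replicate 2 than in the rest. Csf2 was at 0.0806, 0.481, 0.119 and 0.195 CPM at 0 h and at 30.1, 382, 47.9 and 30.3 CPM at 1 h. Csf3 was at 0.0806, 0.0688, 0.178 and 0 CPM and then 17.98, 176, 14.4 and 17.4 CPM. For both genes, every 1 h library was above every 0 h library, a condition of the rule for large changes. The log2 fold change of Csf2 was 9.07 with all libraries and 7.33 ± 0.32 (SE), edgeR adjusted p = 7.3e-14 without replicate 2. That of Csf3 was 9.25 with all libraries and 7.49 ± 0.40 (SE), edgeR adjusted p = 2.9e-12 without it.

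Il6, Il12b, Il10 and Ifnb1, cytokines often followed in LPS experiments, were at or near the floor at 1 h. Il6 had 2 counts over the 0 h group and 54 over the 1 h group, of which replicate 2 gave all but 12. The ratio of depth-adjusted counts was 21.9 (95% exact interval for counting error 5.78 to 185), and 6.11 (1.36 to 56.2) without replicate 2. The call was lost without that library (edgeR adjusted p = 0.053, against 0.011 with it). Il12b was listed at 0.5 counts in 1 library at 0 h and at 0 in all others of both groups. Il10 and Ifnb1 were too low to be tested, with at most 0.131 and 0.262 CPM in any 0 h or 1 h library of the Nur77 line. At 5 h, Il6 was at 18.5 ± 1.68 CPM and Il12b at 0.764 ± 0.345 CPM (SD, n = 4).

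Most chemokine genes rose. Of 15 tested, 13 rose, 0 fell and 2 were not called in both fits. The median log2 fold change was 4.49 as fitted, or 3.57 without replicate 2. Cxcl1 and Cxcl3, which attract neutrophils, had no counts at 0 h. The median becomes 4.08 (3.56) when both are set against a floor of 3 counts over the 0 h group. Against that floor, Cxcl1 was 39.5-fold and Cxcl3 8.79-fold higher at 1 h, with no allowance for error in the 1 h counts. Without replicate 2 these ratios were 46.9-fold and 8.66-fold. Cxcl2, of the same kind and with the overlapping kB matches shown above, went from 9.99, 12.1, 12.2 and 12 CPM to 3760.0, 4781, 3238 and 3599 CPM. The log2 fold change was 8.37 ± 0.20 (SE) [8.25], edgeR adjusted p = 3.4e-20. Ccl4 rose from 24.3, 24.8, 22.7 and 24.2 CPM to 605, 558, 447 and 547 CPM, and Ccl3 from 97.2, 98.1, 91.9 and 89.9 CPM to 1073, 1958, 1181 and 1082 CPM. Both attract monocytes and T cells, and neither overlapped between the times. Their log2 fold changes were 4.49 [4.47] and 3.81 [3.56], with replicate 2 above the others for Ccl3 and inside their range for Ccl4.

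Cxcl10 and Ccl2 parted in replicate 2. Cxcl10, an interferon-responsive chemokine, was at 4.43, 3.16, 3.33 and 4.99 CPM and then 561, 185, 529.5 and 574 CPM, with replicate 2 the lowest. Ccl2, which attracts monocytes, was at 8.54, 9.21, 9.87 and 7.46 CPM and then 61.1, 404, 67.8 and 65.3 CPM, with replicate 2 far above the others. The log2 fold change of Cxcl10 was 6.86 with that library and 7.13 without it. That of Ccl2 was 4.08 with it and 2.88 ± 0.09 (SE), edgeR adjusted p = 7.8e-20 without it. Ccl22, an attractant of T cells, rose from 2.26, 1.99, 2.68 and 2.72 CPM to 11.6, 13.8, 13.2 and 10.9 CPM, with a log2 fold change of 2.35 [2.30] and a level of 365 ± 10.8 CPM (SD, n = 4) at 5 h. The 2 chemokines not called were Ccl6, at 7.004 ± 0.725 CPM and then 7.04 ± 1.18 CPM (SD, n = 4), and Ccl17, listed at 0.5 counts in 1 library at 0 h and at 0 in the other 7.

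Enzymes and secreted effectors gave 16 that rose, 0 that fell and 4 not called of 20 tested in both fits, with a median log2 fold change of 1.84 (1.46 without replicate 2). Acod1, which makes itaconate, went from 2.42, 3.44, 3.45 and 4.67 CPM to 527, 452, 482 and 501 CPM. Its log2 fold change was 7.11 ± 0.23 (SE) [7.15], edgeR adjusted p = 4.3e-17, and it stood at 3538 ± 89.8 CPM (SD, n = 4) by 5 h. Ptgs2, the inducible cyclooxygenase, was at 2.98, 2.89, 3.09 and 3.502 CPM and then 138, 523, 193 and 200.2 CPM. Replicate 2 was highest, and the log2 fold change was 6.39 with it and 5.82 without it. Pde4b, a phosphodiesterase that degrades cAMP, rose from 31.9, 31.5, 32.95 and 30.6 CPM to 355, 334, 389 and 395 CPM. Sod2, the mitochondrial superoxide dismutase, rose in all libraries from 102, 105, 105 and 103 CPM to 241, 236, 240.3 and 242 CPM. Their log2 fold changes were 3.54 [3.58] and 1.21 [1.22]. Nos2, the inducible nitric oxide synthase, was not called. It was at 0, 0.0688, 0.0595 and 0.195 CPM and then 0.0416, 1.08, 0.0436 and 0.179 CPM, where replicate 2 alone passed 1 CPM, and at 98.97 ± 6.898 CPM (SD, n = 4) by 5 h. Its fitted log2 fold change changed sign, from 1.63 (edgeR adjusted p = 0.15) to -0.27 (edgeR adjusted p = 0.84), when that library was left out.

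Outside the lists, the rule for large changes named Sele and Gem. Sele, the adhesion molecule E-selectin, had 2 counts over the 0 h group and 2458 over the 1 h group. The depth-adjusted ratio was 997 (95% exact interval for counting error 276 to 8236), and 633 (175 to 5232) without replicate 2. Its levels at 1 h were 18.4, 81.9, 22.4 and 25.7 CPM, and the call held in both fits (edgeR adjusted p = 4.5e-09 and 5.9e-18). Gem, a small GTP-binding protein, was at 0.0806, 0, 0.119 and 0.0649 CPM and then 12.9, 5.12, 12.4 and 14.7 CPM, with replicate 2 the lowest. It was nearly gone again at 5 h, at 0.5799 ± 0.2704 CPM (SD, n = 4). At 1 h the log2 fold change of Gem was 7.24 ± 0.43 (SE) [7.47], edgeR adjusted p = 5.2e-13.

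**Figure D3:**
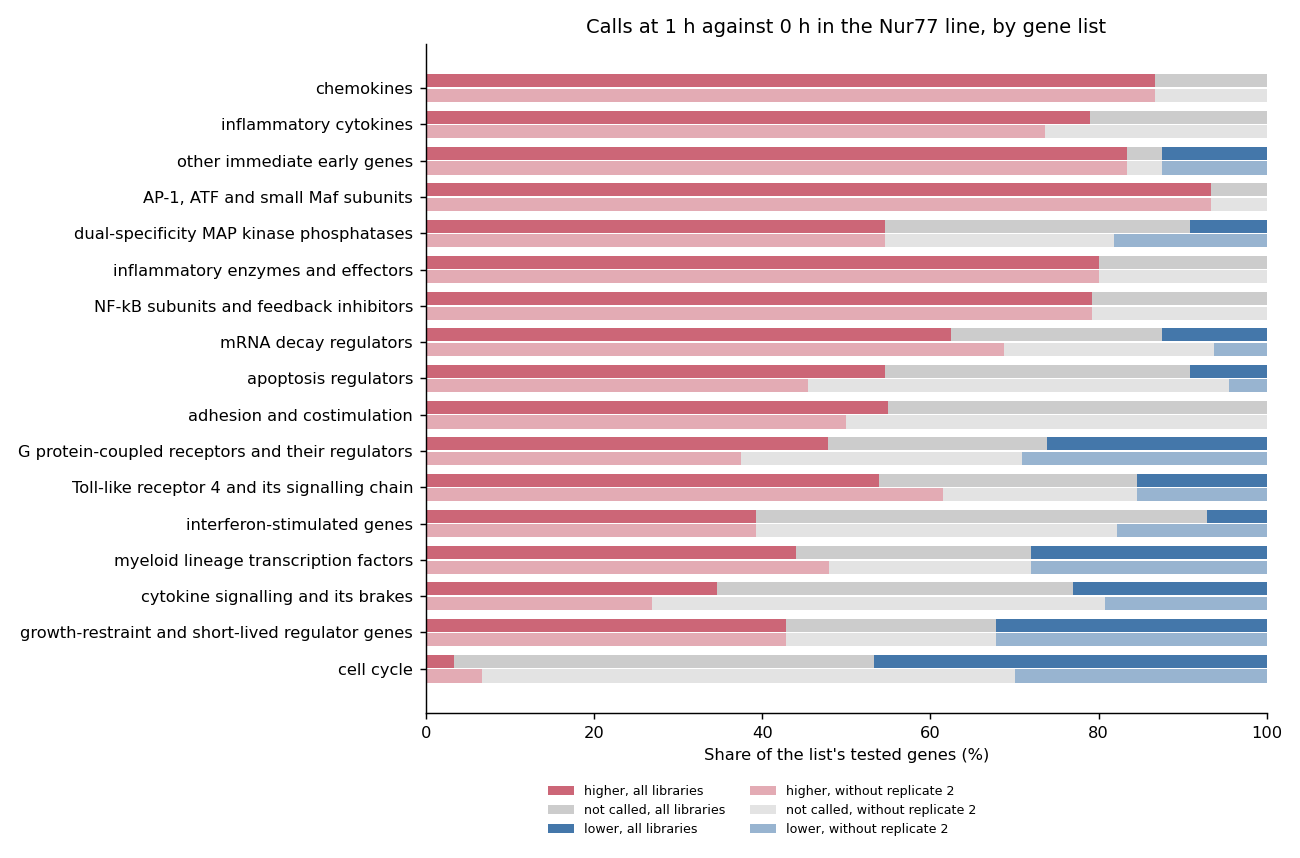
Share of each list's tested genes that were higher (red), not called (grey) or lower (blue) at 1 h against 0 h in the Nur77 line, with all libraries (dark, upper bar) and without replicate 2 of the 1 h group (light, lower bar), ordered by median log2 fold change. Red fills most of the upper bars (13 of 15 chemokines, 14 of 15 AP-1, ATF and small Maf subunits, 19 of 24 NF-kB genes), and cell cycle genes are the only list with more lower than higher calls in both fits. Of all genes tested, 22.5% were higher and 21.8% lower, and 19.1% and 19.1% without replicate 2.

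Genes of the receptor chain rose more often than they fell, mostly by less than 1 on the log2 scale. Of 26 tested genes of Toll-like receptor 4 and its signalling chain, 14 rose, 4 fell and 8 were not called (16, 4 and 6 without replicate 2), with a median log2 fold change of 0.29 (0.28). Only 4 of them rose by at least 1 on that scale (5 without replicate 2). The largest rise among those named was in Map3k8, the kinase that links the receptor to ERK. It went from 4.43, 3.78, 3.75 and 5.19 CPM to 18.7, 15.1, 18.8 and 19.2 CPM (2.07 ± 0.11 (SE) [2.14], edgeR adjusted p = 1.0e-13). Ticam1, the adaptor of the interferon branch, rose from 23.4, 22.97, 20.99 and 20.4 CPM to 55.5, 56.5, 69.8 and 62.8 CPM, a log2 fold change of 1.48 [1.52]. Cd14, the coreceptor, was already abundant at 545, 555, 564 and 544 CPM and reached 1281, 924, 973 and 1145 CPM. Ripk2, a kinase upstream of NF-kB, was at 45.1, 45.4, 45.8 and 51.5 CPM and then 91.1, 81.3, 86.7 and 92.2 CPM. The log2 fold changes of Cd14 and Ripk2 were 0.97 [1.04] and 0.90 [0.94], with no overlap between times. Tlr4, singled out after its values were seen, was at 164, 168, 143 and 175 CPM and then 103, 183, 126 and 131 CPM. It was not called with all libraries (-0.26, edgeR adjusted p = 0.077) and fell without replicate 2 (-0.44 ± 0.09 (SE), edgeR adjusted p = 0.00061).

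Of 26 tested cytokine receptors, kinases, STATs and their inhibitors, 9 were higher, 6 lower and 11 not called, beside 22.5% higher and 21.8% lower of all genes. Without replicate 2 the counts were 7, 5 and 14, beside 19.1% and 19.1%. Over the list, the median log2 fold change was 0.05 (0.11). The feedback inhibitor Socs3 had the smallest adjusted p of the list and rose from 8.54, 9.63, 8.56 and 8.56 CPM to 247, 187, 229 and 236 CPM (4.67 ± 0.08 (SE) [4.75], edgeR adjusted p = 2.5e-24). Il10ra, the ligand-binding chain of the interleukin-10 receptor, rose from 9.67, 12.7, 12.6 and 11.02 CPM to 67.1, 69.4, 51.7 and 61.7 CPM. The phosphatase gene Ptpn2 rose from 57.2, 59.7, 53.3 and 57.1 CPM to 89.7, 122, 109.7 and 83.9 CPM. These were log2 fold changes of 2.44 [2.38] and 0.83 [0.74]. Cish, an inhibitor of STAT5 signalling, was at 0.161, 0.206, 0.119 and 0.0649 CPM and then 4.58, 27.1, 3.84 and 4.13 CPM, much higher in replicate 2 than in the other 3. For Cish the log2 fold change was 6.08 with that library and 4.88 ± 0.30 (SE), edgeR adjusted p = 1.6e-13 without it.

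Of 28 interferon-stimulated genes tested, 11 were higher, 2 lower and 15 not called, beside 22.5% higher and 21.8% lower of all genes. Without replicate 2 the counts were 11, 5 and 12, beside 19.1% and 19.1%. The median log2 fold change was 0.23 with that library and 0.01 without it. Oasl1, an inhibitor of Irf7 translation, rose from 5.16, 4.47, 4.76 and 4.67 CPM to 64.02, 33.3, 56.3 and 60.5 CPM, and Ifih1, a sensor of viral RNA, from 24.98, 22.2, 19.6 and 23.7 CPM to 87.2, 63.7, 103 and 98.1 CPM. Isg15, a ubiquitin-like modifier, rose from 0.322, 1.51, 1.07 and 0.908 CPM to 14.7, 8.15, 9.33 and 11.7 CPM. Replicate 2 was the lowest 1 h library for all of these, and the log2 fold changes were 3.49 [3.66], 1.96 [2.09] and 3.49 [3.60]. Gbp3, a guanylate-binding protein gene, was at 0.532 ± 0.149 CPM and then 5.04 ± 1.82 CPM (SD, n = 4), a log2 fold change of 3.26 [3.45]. The transcription factor Irf1 was at 20.5, 21.1, 20.5 and 18.2 CPM and then 109, 35.5, 98.2 and 98.5 CPM, so replicate 2 sat nearer to the 0 h libraries than to its group. For Irf1 the log2 fold change was 2.09 with replicate 2 and 2.35 ± 0.06 (SE), edgeR adjusted p = 1.4e-21 without it. Of the type I interferon signature, and singled out after their values were seen, Ifit1 rose by 3.16 [3.34] on the log2 scale (edgeR adjusted p = 1.3e-10). Mx1, Ifit3 and Irf7 were not called in either fit, with log2 fold changes of -0.20 [-0.38], 0.35 [0.09] and 0.32 [0.02].

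Surface molecules of contact and costimulation gave 11 higher, 0 lower and 9 not called of 20 tested (10, 0 and 10 without replicate 2), with a median log2 fold change of 0.38 (0.29). Cd83, a marker of activated antigen-presenting cells, went from 4.67, 3.99, 4.16 and 3.76 CPM to 297, 74.9, 263 and 302 CPM, with replicate 2 far below the rest. The rise on the log2 scale was 5.82 with it and 6.12 ± 0.08 (SE), edgeR adjusted p = 9.6e-29 without it. Marcksl1, a regulator of the actin cortex, rose from 59.1, 60.1, 64.7 and 63.3 CPM to 943, 692, 887 and 923 CPM (3.80 ± 0.08 (SE) [3.89], edgeR adjusted p = 6.4e-23). Icam1, a ligand of leukocyte integrins, rose from 86.8, 85.5, 89.9 and 85.7 CPM to 488, 262, 465 and 497 CPM, again with replicate 2 lowest. Cd40, a costimulatory receptor, rose from 2.42, 2.89, 3.57 and 2.21 CPM to 25.02, 14.7, 16.7 and 16.4 CPM. These were log2 fold changes of 2.30 [2.47] and 2.72 [2.81].

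G protein-coupled receptors and their regulators moved in both directions. Of 23 tested, 11 were higher, 6 lower and 6 not called, beside 22.5% higher and 21.8% lower of all genes. Without replicate 2 the counts were 9, 7 and 8 of 24, beside 19.1% and 19.1%. Over the list, the median log2 fold change was 0.33 (0.09). Ccrl2, a receptor that binds chemerin, rose from 2.74, 3.71, 3.92 and 2.85 CPM to 328, 104, 237 and 307 CPM, and its log2 fold change was 6.19 ± 0.28 (SE) [6.44], edgeR adjusted p = 1.7e-13. Gpr84, a receptor for medium-chain fatty acids, rose from 48.5, 47.4, 44.96 and 42.02 CPM to 236, 218, 256 and 251 CPM. The complement receptor C5ar1 rose from 83.7, 86.8, 84.8 and 76.1 CPM to 258, 294, 294 and 275 CPM. The log2 fold changes were 2.40 [2.44] and 1.76 [1.74], without overlap between times. Rgs2, which speeds the inactivation of G proteins, fell from 71, 66.98, 66.3 and 67.9 CPM to 17.6, 16.02, 16.6 and 19.3 CPM in all 4 libraries, a log2 fold change of -1.97 ± 0.07 (SE) [-1.94], edgeR adjusted p = 9.1e-18. Named after its values were seen, the chemokine receptor gene Cxcr4 fell too, with a log2 fold change of -1.90 [-1.69].

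The largest fall among named genes above 100 CPM at 0 h was that of Txnip, which restrains glucose uptake and thioredoxin. It went from 487, 504, 509 and 513 CPM to 104, 191, 93.7 and 98.3 CPM. All 1 h libraries were below all 0 h libraries, a condition of the rule for large changes, and replicate 2 had fallen the least. The log2 fold change was -2.05 ± 0.14 (SE), edgeR adjusted p = 2.8e-11. Without replicate 2 it was -2.35 ± 0.05 (SE), edgeR adjusted p = 7.4e-24. Gm15441 (chr3:96555768-96566801) is a noncoding gene whose span covers that of Txnip (chr3:96557957-96561857). It went from 94.3, 94.3, 99.3 and 101 CPM to 19.98, 31.98, 15.7 and 17.2 CPM, a log2 fold change of -2.20 [-2.46]. How the counting treated strand is not stated, so reads of this pair cannot be told apart. Arrdc3, an arrestin-domain gene related to Txnip, fell from 13.3, 15.5, 16.8 and 16.99 CPM to 3.497, 6.87, 4.27 and 4.58 CPM (-1.73 ± 0.19 (SE) [-1.95], edgeR adjusted p = 8.6e-08).

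Txnip and Arrdc3 belong to a list of growth-restraint and short-lived regulator genes, of which 12 rose, 9 fell and 7 were not called of 28 tested in both fits. Of all genes, 22.5% were higher and 21.8% lower (19.1% and 19.1% without replicate 2). The median log2 fold change of the list was 0.03 (0.00 without replicate 2). Its risers included Cdkn1a, an inhibitor of cyclin-dependent kinases, at 179, 188, 181 and 176 CPM and then 409.9, 408, 397 and 394 CPM. Tgif1, a corepressor of the TGF-beta pathway, went from 53.5, 61.8, 58.7 and 57.98 CPM to 191, 189, 191 and 191 CPM. Cited2, a competitor for the coactivator CBP, went from 361, 386, 362 and 364 CPM to 775, 907, 1058 and 919 CPM. Their log2 fold changes were 1.15 [1.15], 1.71 [1.72] and 1.31 [1.32]. Trib1, a pseudokinase that promotes Cebpa degradation, rose from 12.6, 13.9, 15.1 and 12.8 CPM to 52.7, 45.2, 63.8 and 57.4 CPM (2.01 ± 0.09 (SE) [2.09], edgeR adjusted p = 2.2e-15). Ddit4, an inhibitor of mTORC1, rose from 12.2 ± 1.04 CPM to 38.5 ± 6.14 CPM (SD, n = 4), by 1.66 [1.67] on the log2 scale.

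Of the other 7 among the 10 largest falls named by the rule, 3 were zinc-finger genes. Zfp763 fell from 9.27, 10.7, 11.4 and 10.6 CPM to 1.58, 2.29, 1.74 and 2.51 CPM, Zfp60 from 17.1, 16.4, 20.7 and 20.04 CPM to 3.75, 6.87, 5.23 and 5.38 CPM, and Zfp41 from 10.2, 10.6, 12.4 and 11.02 CPM to 3.16, 3.097, 3.71 and 3.68 CPM. Their log2 fold changes were -2.42 [-2.50], -1.83 [-1.98] and -1.70 [-1.66]. None of the 3 overlapped between times, which the rule that named them required. Cnr2, the cannabinoid receptor of immune cells, fell from 16.1, 13.8, 14.8 and 16.1 CPM to 4.33, 7.41, 3.18 and 3.59 CPM, and Cd300lb, an activating receptor of myeloid cells, from 135, 140.4, 132 and 132 CPM to 47.5, 31.5, 42.98 and 44.1 CPM. Replicate 2 had fallen least for Cnr2 and most for Cd300lb, and the log2 fold changes were -1.73 [-2.02] and -1.70 [-1.59]. Pex26, a peroxisome assembly gene, fell from 11.4, 11.3, 10.3 and 11.2 CPM to 3.08, 4.58, 2.35 and 2.601 CPM (-1.82 ± 0.15 (SE) [-2.03], edgeR adjusted p = 4.7e-10). Rgs2, described above with the receptors, was the remaining one.

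Of 25 myeloid lineage transcription factors tested, 11 were higher, 7 lower and 7 not called, beside 22.5% higher and 21.8% lower of all genes. Without replicate 2 the counts were 12, 7 and 6, beside 19.1% and 19.1%. The list had a median log2 fold change of 0.15 (0.28 without replicate 2). Cebpb, an activator of inflammatory genes, rose from 43.7, 44.6, 48.1 and 47.99 CPM to 116, 128, 126 and 104 CPM, and Ets2 from 172, 168, 161 and 165 CPM to 315, 429, 346 and 353 CPM. Nfe2l2, the master regulator of antioxidant genes, rose from 266, 258, 263 and 266 CPM to 370.0, 401, 480.2 and 418 CPM. On the log2 scale the changes were 1.36 [1.32], 1.12 [1.02] and 0.66 [0.68]. Cebpa, singled out after its values were seen, fell as Cebpb rose, with a log2 fold change of -1.24 [-1.10].

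Regulators of apoptosis rose more often than they fell, 12 against 2 with 8 not called of 22 tested (10, 1 and 11 without replicate 2). The list had a median log2 fold change of 0.47 (0.37). With all libraries, the smallest adjusted p of the list was that of Cflar, which blocks caspase-8. It went from 115, 108, 107 and 111 CPM to 784, 834, 927 and 924 CPM (2.98 ± 0.07 (SE) [2.99], edgeR adjusted p = 2.4e-21). Mcl1, a short-lived relative of Bcl2, went from 863, 919, 896 and 933 CPM to 3158, 2574, 3332 and 3171 CPM (1.76 [1.84]). Bcl2a1d rose from 52.7 ± 1.82 CPM to 215 ± 43.6 CPM (SD, n = 4), but it has near-identical copies among which the counting could split reads, so its value is uncertain. Bcl10, a scaffold of NF-kB signalling, rose from 59.8, 66.4, 61.9 and 62.2 CPM to 127, 121, 105 and 128 CPM (0.94 [0.94]). The killer gene Bcl2l11, singled out after its values were seen, rose too, with a log2 fold change of 3.00 [3.23], and without replicate 2 its adjusted p was the smallest of the list (edgeR adjusted p = 4.3e-23).

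Cell cycle genes fell more often than they rose. Of 30 tested, 1 rose, 14 fell and 15 were not called, beside 22.5% higher and 21.8% lower of all genes. The median log2 fold change was -0.18. Without replicate 2, 2 rose, 9 fell and 19 were not called, beside 19.1% and 19.1%, and the median was -0.08. With all libraries, the members with the smallest adjusted p were Cdc6, E2f2, Cdc25a and Ccne1, which all fell. Cdc6, which loads the replicative helicase, was at 42.1, 44.4, 42.2 and 40.9 CPM and then 28.9, 18.2, 26.6 and 23.5 CPM, and E2f2, an activator of S-phase genes, at 32.2, 33.4, 32.7 and 32.3 CPM and then 21.6, 11.8, 15.9 and 19.4 CPM. In both, the 1 h libraries lay below all 0 h libraries and replicate 2 was lowest. Cdc25a, a phosphatase that activates cyclin-dependent kinases, was at 40.9, 40.7, 40.8 and 42.4 CPM and then 32.4, 18.99, 27.7 and 31.04 CPM. Ccne1, cyclin E, went from 45.5, 42.4, 46.8 and 45.9 CPM to 34.6, 31.98, 34.7 and 34.8 CPM. The log2 fold changes were -0.79 for Cdc6, -0.92 for E2f2, -0.58 for Cdc25a and -0.41 for Ccne1. Without replicate 2 they were -0.68, -0.79, -0.44 and -0.38. Cdk6, singled out after its values were seen, went the other way with all libraries (log2 fold change 0.50, edgeR adjusted p = 0.024). It was not called without replicate 2 (0.22, edgeR adjusted p = 0.19).

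Most of the genes that were high in replicate 2 were also higher at 5 h than at 0 h. Among 9456 genes that reached 10 CPM in some group, it was at least 2-fold above the mean of the other 3 libraries on the scale of log2 of CPM plus 1 in 167 genes, and at least 2-fold below it in 86. Each of the other 3 libraries was above its peers in 2 to 7 genes and below in 3 to 11. Of the 167 genes, 150 had a higher mean at 5 h than at 0 h in the same line, and for 96 the difference was at least 1 on that scale. Of the 86 genes, 56 had a lower mean at 5 h, 37 of them by at least 1, and 30 had a higher mean, 20 of them by at least 1. Over all 9456 genes, 4951 were higher at 5 h and 4505 lower, with 729 and 618 at that distance. The 0 h and 5 h libraries take no part in replicate 2's distance from its group. A gene could, however, reach the 10 CPM in a 5 h group alone, so part of the lean toward 5 h can come from that filter. What set this library apart was not tested.

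**Figure D4:**
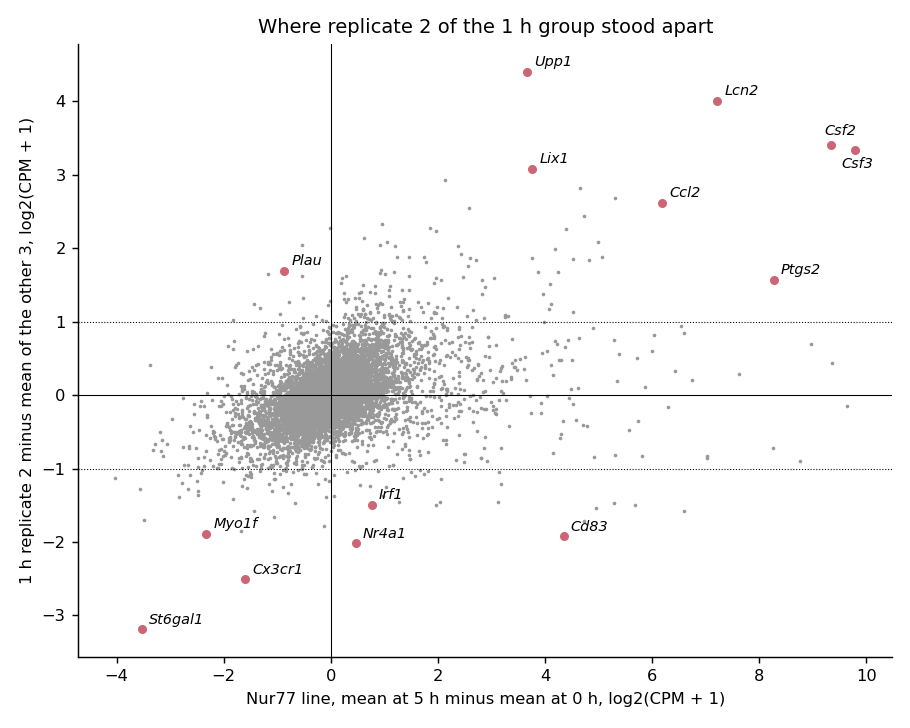
Distance of replicate 2 from the mean of the other 3 libraries at 1 h (y axis) against the difference between the means at 5 h and 0 h in the Nur77 line (x axis), both on the scale of log2 of CPM plus 1, 1 point per gene with at least 10 CPM in some group. Dotted lines mark a 2-fold distance. The 10 CPM could be reached in a 5 h group alone. The genes above the upper line lie mostly to the right of 0, as 150 of 167 do, while Nr4a1, Irf1 and Cd83 lie below the lower line and to the right.

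The rule for the largest distances named 5 genes above and 5 below. Above, besides Csf2 and Csf3, stood Upp1, a uridine phosphorylase, at 33.1 CPM in replicate 2 and 0.0833, 1.05 and 0.897 CPM in the others. Lcn2, a siderophore-binding protein, was at 71.1 CPM against 3.08, 4.23 and 3.23 CPM, and Lix1 at 18.2 CPM against 0.916, 1.92 and 1.08 CPM. At 5 h these 3 genes had means of 17.8 ± 2.83, 205 ± 6.06 and 24.3 ± 2.36 CPM (SD, n = 4). Upp1 and Lix1 were called higher only with replicate 2: the edgeR adjusted p was 0.013 and 0.013 with it, and 0.56 and 0.11 without it. Lcn2 rose in both fits, by 5.58 and 3.11 on the log2 scale.

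Below, besides Nr4a1 and Cd83, stood St6gal1, a sialyltransferase, at 0.875 CPM in replicate 2 and 15.8, 15.2 and 17.2 CPM in the others. Its levels were 18.9, 14.6, 14.9 and 14.01 CPM at 0 h and 0.4404 ± 0.195 CPM (SD, n = 4) at 5 h. Cx3cr1, the fractalkine receptor, was at 18.4 CPM against 117, 98.3 and 115 CPM, and Myo1f, a class I myosin of leukocytes, at 32.2 CPM against 125, 115 and 126 CPM. For St6gal1 and Myo1f, replicate 2 was near the 5 h level while the other 3 were near the 0 h level. St6gal1 was not called in either fit. Myo1f was called only without replicate 2 (-0.13 ± 0.05 (SE), edgeR adjusted p = 0.048). Cx3cr1 fell in both, with a log2 fold change of -0.88 with replicate 2 (edgeR adjusted p = 0.023) and -0.54 without it (edgeR adjusted p = 1.9e-06).

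The response was then set against that of the GFP line, where 1189 genes rose and 937 fell, 17.4% of those tested. Numbers of calls do not compare the sizes of 2 responses. A test of the difference itself, the interaction of line and time, called 138 genes, 1.13% of 12198. The change was higher (more upward) in the Nur77 line in 75 of them and lower in 63. Without replicate 2 it called 224, 1.82% of 12306, with 97 higher and 127 lower. These counts hang on single libraries. They rose to 858 higher and 739 lower without replicate 1 of the Nur77 1 h group and to 398 and 216 without its replicate 4. With any other of the 16 libraries left out they lay between 36 and 113 higher and 38 and 127 lower. Each gene named below as differing between the lines with all libraries was also called with omission of each of the 16 libraries in turn, except Dusp1 (15 of 16).

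On the log2 scale, the immediate early genes Fos and Egr1 and the stress genes Ddit4 and Ppp1r15a rose further in the Nur77 line. They started there from lower mean levels at 0 h. Fos was at 4.56 ± 0.249 CPM in Nur77 and 18.2 ± 1.01 CPM in GFP cells at 0 h, and at 16.9 ± 0.977 and 27.9 ± 2.27 CPM at 1 h (SD, n = 4 each). Its log2 fold change was 1.89 [1.85] in Nur77 and 0.62 in GFP cells, an interaction of 1.27 [1.23] on the log2 scale (edgeR adjusted p = 3.5e-05). At 1 h, then, Fos was still lower in the Nur77 line, although its rise was larger. Egr1 was at 17.4 ± 1.24 and 106 ± 11.7 CPM at 0 h and at 454 ± 146 and 948 ± 3.07 CPM at 1 h in Nur77 and GFP cells (SD, n = 4 each). On the log2 scale the changes were 4.70 [4.47] and 3.17, and the interaction was 1.54 [1.30] (edgeR adjusted p = 4.7e-05). For Ddit4, 0 h levels of 12.2 ± 1.04 CPM in Nur77 and 20.99 ± 0.888 CPM in GFP cells were followed by 38.5 ± 6.14 and 25.2 ± 1.69 CPM (SD, n = 4 each). The interaction was 1.39 [1.40] (edgeR adjusted p = 5.6e-07). Ppp1r15a, a stress-induced phosphatase subunit, went from 27.4 ± 1.41 to 686 ± 142 CPM in Nur77 and from 40.03 ± 3.94 to 398 ± 32.8 CPM in GFP cells (SD, n = 4 each). Its interaction was 1.34 [1.19] (edgeR adjusted p = 3.4e-06), and here the Nur77 line was the higher at 1 h.

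The NF-kB pathway genes Tnfaip3, Nfkbia and Traf1 rose less far on the log2 scale in the Nur77 line, from higher mean levels at 0 h. Of the 24 NF-kB genes, 6 had a lower and 0 a higher response by the interaction test, beside 63 and 75 of all 12198 genes tested. Without replicate 2 the list gave 7 and 0, beside 127 and 97 of 12306. The list was counted in these fits only, and the calls of this test hang on single libraries. Tnfaip3 was at 22.8 ± 1.63 CPM in Nur77 and 7.79 ± 0.828 CPM in GFP cells at 0 h, and at 942 ± 85.5 and 877 ± 12.5 CPM at 1 h (SD, n = 4 each). The means were close at 1 h, the log2 fold changes being 5.37 [5.43] and 6.83 and the interaction -1.46 [-1.40] (edgeR adjusted p = 2.0e-09). Nfkbia was at 77.9 ± 2.49 and 46.8 ± 5.104 CPM before and 769 ± 76.1 and 1128 ± 24.9 CPM after LPS (SD, n = 4 each), an interaction of -1.29 [-1.35] (edgeR adjusted p = 2.1e-09). For Traf1 the levels at 0 h were 3.51 ± 0.277 and 0.875 ± 0.285 CPM (SD, n = 4 each) and the interaction was -1.35 [-1.37] (edgeR adjusted p = 0.00011).

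The transcription factor gene Irf1 and the receptor and chemokine genes Gpr84 and Ccl22 also rose less far on the log2 scale, again from higher mean levels at 0 h. Irf1 was at 20.1 ± 1.297 CPM in Nur77 and 15.2 ± 0.984 CPM in GFP cells at 0 h, and at 85.3 ± 33.6 and 229 ± 11.8 CPM at 1 h (SD, n = 4 each). Without replicate 2 the Nur77 level at 1 h was 102 ± 6.198 CPM (SD, n = 3), and the interaction was -1.57 ± 0.09 (SE), edgeR adjusted p = 7.3e-12. Ccl22 went from 2.41 ± 0.349 to 12.4 ± 1.33 CPM in Nur77 and from 0.178 ± 0.129 to 4.09 ± 0.689 CPM in GFP cells (SD, n = 4 each). The interaction was -1.97 [-2.01] (edgeR adjusted p = 0.0012), with a higher level in the Nur77 line at both times. Gpr84 was at 45.7 ± 2.88 and 12.8 ± 0.589 CPM at 0 h in Nur77 and GFP cells and at 241 ± 17.1 and 167 ± 14.8 CPM at 1 h (SD, n = 4 each). Its interaction was -1.32 [-1.27] (edgeR adjusted p = 2.1e-09).

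Among other genes described earlier, the response of Dusp1 (-0.93 [-0.83]), Pde4b (-0.84 [-0.79]) and Zc3h12c (-0.95 [-0.84]) was lower in the Nur77 line by the interaction on the log2 scale. That of Zfp36 (0.59 [0.58]), Btg2 (0.86 [0.98]) and Ccl3 (0.86 [0.61]) was higher. On the same scale Rgs2 fell further in the Nur77 line (-0.68 [-0.65]), as did Cd300lb (-0.66 [-0.55]). For Tnf the interaction was -0.47 with all libraries (edgeR adjusted p = 0.22) and -0.73 ± 0.13 (SE), edgeR adjusted p = 0.0015 without replicate 2. Jun gave -0.50 (edgeR adjusted p = 0.16) and -0.77 ± 0.09 (SE), edgeR adjusted p = 1.8e-06. Cxcl2, Nfkbiz, Acod1 and Il1b were not called for the interaction in either fit, with values between -0.30 and 0.21.

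**Figure D5:**
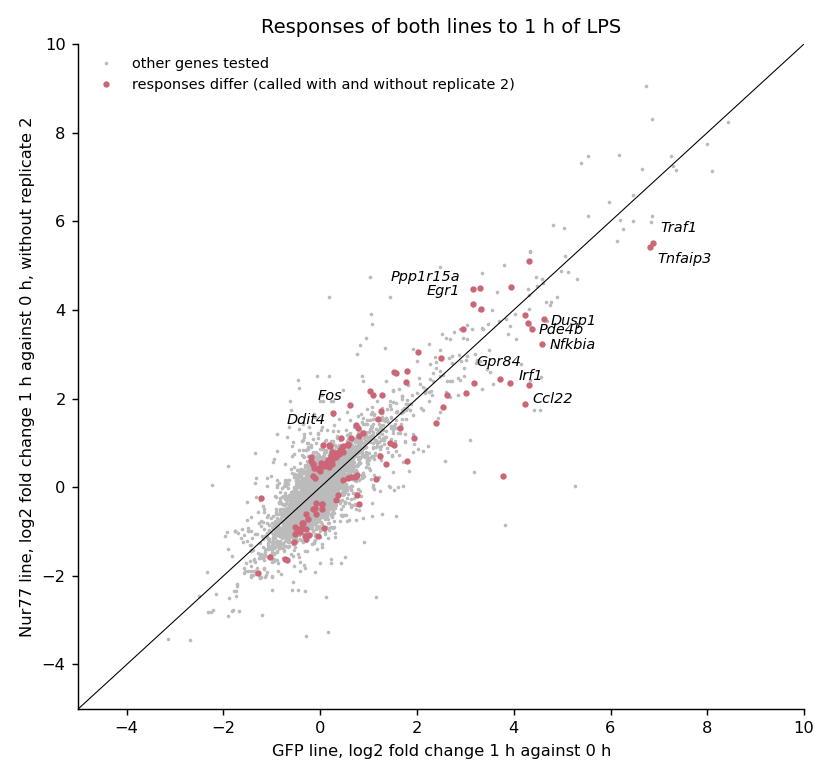
Log2 fold change of 1 h LPS against 0 h in the Nur77 line without replicate 2 (y axis) against that in the GFP line (x axis), 1 point per gene tested that reached 1 CPM in some group, with the line of equal response. Red points are genes whose interaction was called with and without replicate 2: Egr1, Ppp1r15a, Fos and Ddit4 lie above the line and Tnfaip3, Traf1, Nfkbia, Irf1 and Ccl22 below it.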

How the data were processed

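RNA was measured by RNA-seq in 24 libraries of RAW 264.7 cells, 4 in each of 6 groups. The authors deposited 1 table of estimated counts per transcript, not normalized, with values in steps of 0.5. Per the submitters' processing notes, reads were handled with HISAT2 2.1.0 and CASAVA 1.8.2 on mm10. No counting tool, strand handling or annotation version is given in the sources used here. From the deposited estimated counts, 42361 transcripts were matched to genes (42203 through RefSeq, 65 through GENCODE, 93 kept under their own identifier, 0.496% of counts). For each of 25160 genes the transcript with the highest mean count was kept, and counts were rounded to whole numbers. A transcript that is not the most abundant one is therefore not seen.

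All 24 libraries were fitted in edgeR 4.0.16 (limma 3.58.1, R 4.3.3) with TMM scaling (factors 0.896 to 1.14), filterByExpr, robust quasi-likelihood tests and Benjamini-Hochberg adjustment over all genes tested. The residual degrees of freedom were 18, or 17 without replicate 2 of the Nur77 1 h group. Alternatives were DESeq2 1.42.0, its size factors, other filters, the mean over transcripts, a replicate block, a fit of only the groups compared and omission of each library. Within each of the 6 groups, every pair of libraries differed by more than sampling noise (chi-square per degree of freedom 2.27 to 96.8). All were therefore counted as separate libraries. Such a difference cannot show whether they came from separate cultures. Scripts were tested on simulated data. Intervals cover counting error only.

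Members and lists were chosen with earlier results of these data known. The named genes were a fixed panel, the 10 called genes with the largest rise and the 10 with the largest fall that reached 10 CPM and did not overlap between times, and up to 4 genes of each list with the smallest adjusted p. Genes with the 4 largest positive and negative interactions without replicate 2, and the 5 farthest above and below in that library, were added. Others are marked in the text as chosen after their values were seen. Some genes that the rule named are not reported here.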

Additional observations from a re-analysis of the deposited data

Results flagged for a closer look

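In 184 groups of 4 libraries (the 0 h or the 1 h libraries of the Nur77 line, for each named gene), the highest or lowest library was set against the others by Dixon's ratio. Chance flags about 1 in 20 groups, and 32 were beyond its 95% critical value. Csf2, Csf3, Upp1, Lcn2, Lix1, Nr4a1, Cd83, St6gal1, Cx3cr1 and Myo1f were named at least in part for the distance of replicate 2. That rate therefore does not hold for their 1 h groups. Of the 32 flags, 23 were replicate 2 of the 1 h group. It was the highest library for Il6 (2.76 CPM), Nos2 (1.08 CPM), Ptgs2 (523 CPM), Ccl2 (404 CPM), Sele (81.9 CPM), Csf3 (176 CPM), Csf2 (382 CPM), Txnip (191 CPM), Dusp5 (119 CPM), Ccl3 (1958 CPM), Cish (27.1 CPM), Upp1 (33.1 CPM), Lcn2 (71.1 CPM) and Lix1 (18.2 CPM). It was the lowest for Nr4a1 (9.29 CPM), Cxcl10 (185 CPM), Tnfsf9 (249.6 CPM), Map3k8 (15.1 CPM), Icam1 (262 CPM), Ccne1 (31.98 CPM), Irf1 (35.5 CPM), St6gal1 (0.875 CPM) and Myo1f (32.2 CPM). The other libraries that lay apart from their group were, with their level in CPM, 0 h replicate 4 for Fos (4.93), 0 h replicate 1 for Cxcl2 (9.99), 1 h replicate 4 for Dusp16 (193), 0 h replicate 3 for Tnfsf9 (32.95), 0 h replicate 4 for Ripk2 (51.5), 0 h replicate 2 for Socs3 (9.63), 0 h replicate 2 for Cited2 (386), 0 h replicate 4 for Cdc25a (42.4) and 0 h replicate 4 for Myo1f (129). What set replicate 2 apart was not tested.

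The 1 h response differed between the Nur77 and GFP lines, by the interaction test with all libraries, for 27 named genes. The interaction on the log2 scale (change in Nur77 minus change in GFP cells) was positive for Fos (1.27), Egr1 (1.54), Zfp36 (0.59), Btg2 (0.86), Ccl3 (0.86), Sod2 (0.32), Il10ra (0.67), Ifih1 (0.68), Tgif1 (0.47), Cdkn1a (0.36), Cebpb (0.58), Nfe2l2 (0.33), Ddit4 (1.39) and Ppp1r15a (1.34). It was negative for Nfkbia (-1.29), Tnfaip3 (-1.46), Dusp1 (-0.93), Rgs2 (-0.68), Cd300lb (-0.66), Traf1 (-1.35), Zc3h12c (-0.95), Ccl22 (-1.97), Pde4b (-0.84), Marcksl1 (-0.43), Gpr84 (-1.32), Trib1 (-0.61) and Irf1 (-1.82). With each of 16 libraries left out in turn, Ifih1 remained called in 7 of 16 fits, Marcksl1 and Nfe2l2 in 5 of 16, Trib1 in 14 of 16 and Dusp1 in 15 of 16, and the other 22 genes in all 16.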

How the results depend on the processing

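The counts for the Nur77 line kept within 1.5 times under DESeq2, its size factors, no filter or 1 CPM in 4 libraries, the mean over transcripts and omission of any library. The exception was the fit of only the groups compared, with 1579 lower genes. Replicate numbers did not pair the libraries: same-numbered deviations at 0 h and 1 h correlated between -0.186 and 0.00326, and 0 of 4 libraries correlated best with their own number. With a replicate block, 2639 genes were higher and 2564 lower. The GFP counts were within 1.5 times in all alternatives, and omission of replicate 2 of the Nur77 1 h group from that fit, chosen after seeing the data, gave 1463 higher and 1180 lower.

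For the interaction (75 higher, 63 lower), the replicate block gave 45 and 46, only the groups compared 22 and 25, and DESeq2 283 and 216. Omission of single libraries gave 36 to 858 higher and 38 to 739 lower. The cause was not tested.

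Of 100 named genes with a test, 93 kept direction and side of the threshold in every alternative, and 7 did not: Il6, Nos2, Upp1, Lix1, St6gal1, Cx3cr1 and Myo1f. Over omission of single libraries the log2 fold change of Nos2 ran from -0.27 (without replicate 2 of the 1 h group) to 2.43. That of St6gal1 ran from -0.473 to 0.0431, and was 0.0524 in the groups compared alone without replicate 2. Nos2 was called by DESeq2 (1.72, adjusted p = 0.042). In the groups compared alone Cx3cr1 lost its call (adjusted p = 0.14), as did Upp1 and Lix1. Genes of a few counts, such as Il6, Il10 and Ifnb1 at 1 h, were limited by depth.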
